A study of Sus scrofa with 32 samples.

Results

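Uteroferrin and the genes that move iron through the porcine endometrium were followed in 4 laser-captured compartments of the uterine lining, the epithelium facing the lumen (LE), that of the glands (GE), vessels of the blood (BV) and the stroma between them (S). The genes were matched by pig symbol to the NCBI gene identifiers of the count tables. The 10 symbols ACP5, TF, TFRC, FTL, FTH1, SLC11A2, SLC40A1, STEAP2, HEPHL1 and HMOX1 matched 11 of 30185 genes, because TF is the symbol of 2 neighbouring genes. Endometrium came from 8 prepuberal gilts whose ovulation had been induced with eCG and hCG. The 4 pregnant gilts had been inseminated with semen of 1 boar, and the 4 cyclic gilts with the supernatant of centrifuged semen from that boar. Tissue was taken on Day 14, in pregnant gilts from the hyperemic zones where conceptuses had lain, after the conceptus had been lifted off. Each gilt gave 1 library a compartment, and 31 libraries were analysed, 3 in the pregnant GE group, where P41 was not analysed here, and 4 in each of the others. Gilts are named by C for cyclic or P for pregnant and the number in their labels. The labels give no strain or genotype for the gilts. The captures hold all cells inside a cut outline, so in the values below more cells of a type and more RNA per cell cannot be told apart.

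The pig conceptus attaches to the uterine epithelium without invading it, and the mother feeds it by secretion. Uteroferrin, encoded by ACP5, is the purple acid phosphatase of the uterine glands. It carries iron in its active site and is the classical iron-transport protein of porcine histotroph, secreted under progesterone. Inside cells, iron enters with transferrin by way of its receptor TFRC, is reduced by STEAP proteins, leaves the endosome through SLC11A2, is stored in ferritin made of FTL and FTH1 chains, and leaves the cell through ferroportin, SLC40A1, after which a ferroxidase such as HEPHL1 oxidises it. HMOX1 frees iron from haem.

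Messenger RNAs of several of these genes carry an iron-responsive element, a short hairpin bound by the iron regulatory proteins. Its sequence is shown because it links the storage and export genes, and 3 of the 11 genes held a match, compared with 1.04% of the 20653 pig genes with a RefSeq messenger RNA. The search asked for the loop CAGTG followed by A, C or T, and for an unpaired C that precedes it by a stem of 5 pairs. That stem had to pair, with G-T pairs allowed. All 3 matches lay in the 5′ untranslated region, in exonic sequence of Sscrofa11.1 (RefSeq). The FTH1 stretch spans chr2:9535175-9535203 and the FTL stretch chr6:54231194-54231222 on the plus strand, and the SLC40A1 stretch chr15:94161660-94161688 on the minus strand. Each is given 5′ to 3′ over 29 bases, with the unpaired C and the loop in capitals.
FTH1: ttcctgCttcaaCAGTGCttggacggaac
FTL: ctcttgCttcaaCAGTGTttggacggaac
SLC40A1: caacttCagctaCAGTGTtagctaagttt
A match describes the sequence and is not evidence of binding. Only annotated exons were searched, 2383 bases of them for TFRC. Untranslated sequence missing from the annotation could not be matched, so lack of a match does not show that a gene lacks the element. The antioxidant response element core TGACNNNGC, searched on both strands from 250 bases before to 50 bases after the start of each gene, was found in 0 of 11 of these promoters and in 11.9% of 27096 promoters of that length. Sequence outside that window was not searched, so 0 of 11 does not show that these genes lack the element.

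Library totals ranged from 2415200 to 7081600 counts with a median of 3624000. Levels are counts scaled to the library total (CPM) after a joint TMM normalisation of all libraries, and levels of different genes are compared as CPM per kb of exon. The captures carried the markers of their labels. The summed CPM of 5 epithelial markers was 1674 to 2954 in LE and 1164 to 1445 in GE, against 2.54 to 234 in BV and 7.62 to 381 in S. FOXA2, a transcription factor of uterine glands, was at 65.1 to 94.2 CPM in GE and at 0 to 7.42 CPM in LE. In BV, 5 endothelial markers summed to 1406 to 2852 CPM and 5 smooth muscle markers to 717 to 16025 CPM. S had 485 to 2621 CPM of endothelial and 181 to 864 CPM of smooth muscle markers. Fibroblast markers summed to 24959 to 90660 CPM in BV, overlapping the 36438 to 105783 CPM of S, and were also found in LE (4077 to 16433 CPM) and in GE (2863 to 7494 CPM). Macrophage markers summed to 217 to 608 CPM in S, 128.4 to 424 CPM in BV, 37.4 to 187 CPM in LE and 32.7 to 161 CPM in GE. Leukocyte markers summed to at most 141 CPM and erythroid markers to at most 2347 CPM, both in BV.

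Of the 11 genes, 9 were detectable in both LE and S and 8 in both GE and BV, meaning that they were kept in the authors' filtered table. Differentially expressed genes (DEGs) between pregnant and cyclic gilts were called with edgeR's quasi-likelihood test with a false discovery rate of 1% for LE. The other compartments were held to the unadjusted p that this set for LE, 0.000328. In LE, STEAP2 and FTH1 were DEGs, 2 of 9 genes, while 3.32% of all detectable genes were called. In GE, SLC40A1 was the 1 DEG among 8 genes, with 0.748% called among all. In BV, ACP5 and FTL were DEGs, 2 of 8, with 1.86% called among all. In S, ACP5 and STEAP2 were DEGs, 2 of 9, with 0.293% called among all. All of these were higher in pregnant gilts, a direction called for 2.02%, 0.512%, 1.30% and 0.184% of all genes of LE, GE, BV and S, respectively. At an adjusted p under 0.05 the same test called 3, 1, 4 and 0 of these genes in LE, GE, BV and S, beside 10.7%, 1.86%, 8.63% and 0.0335% of all genes. DESeq2 called 3, 4, 5 and 3 of them, beside 11.2%, 6.64%, 8.50% and 2.52% of all genes, and the robust GLM of edgeR 3, 4, 4 and 3, beside 11.8%, 6.66%, 11.0% and 3.16%. CPM of pregnant and cyclic gilts did not overlap for 4 of 9 genes in LE and 4 of 9 in S, with shares among all detectable genes of 19.4% and 8.81%. The same held for 6 of 8 genes in GE and 5 of 8 in BV, with shares of 22.9% and 18.2%. The median log2 fold change of the genes in LE, GE, BV and S was 0.90, 1.21, 0.38 and 0.85, beside medians over all detectable genes of -0.00725, -0.00824, 0.00181 and 0.00122.

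**Figure D1:**
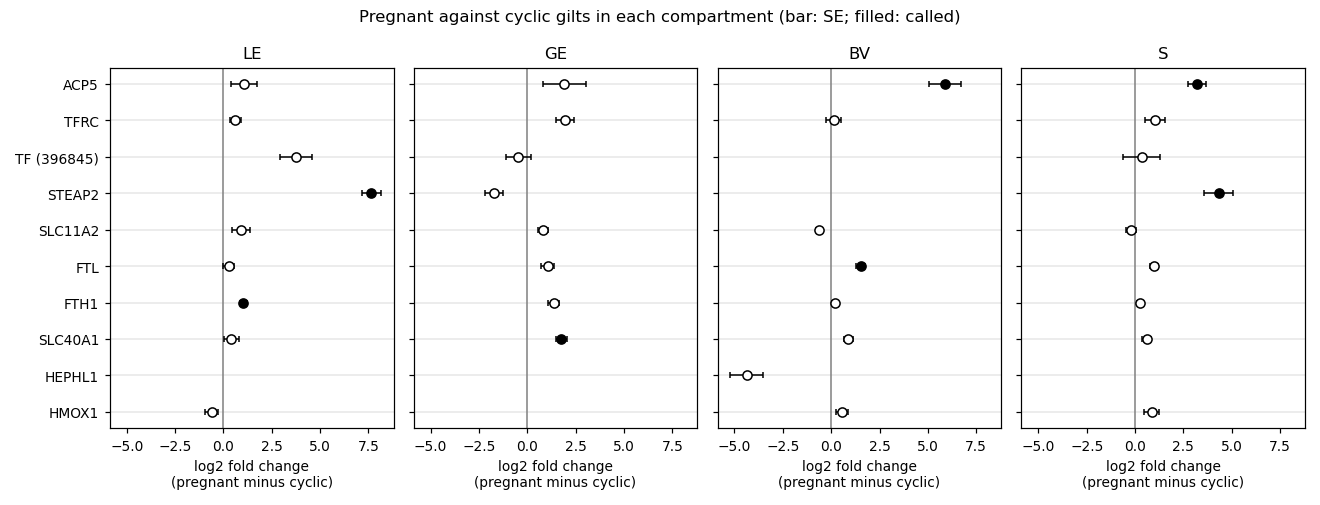
Log2 fold change between pregnant and cyclic gilts (horizontal axis) of 10 iron-handling genes (vertical axis) in LE, GE, BV and S, each where detectable; bars are the SE and filled points mark DEGs. STEAP2 in LE has the highest value at 7.64, and ACP5 reaches 5.88 in BV and 3.18 in S.

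ACP5 (gene 397414, chr2:70206159-70209855, minus strand) was highest in the glands. In GE of cyclic gilts it stood at 2017 CPM in gilt C40, 1531 in gilt C42 and 2374 in gilt C78, and at only 14.2 CPM in gilt C128. In GE of pregnant gilts it stood at 6677 CPM in gilt P139, 4448 in gilt P39 and 5914 in gilt P43. The groups did not overlap, and gilt C128 lay apart from the other cyclic gilts. In pregnant GE its mean of 2731 CPM per kb ranked 9 of 11905 detectable genes. The log2 fold change in GE was 1.92 ± 1.10 (SE) with an adjusted p of 0.339, which was no call. Without gilt C128 the log2 fold change of ACP5 in GE was 1.505 with an adjusted p of 0.0404, still no call. The same library held FOXA2 at 92.6 CPM and epithelial markers at 1412 CPM, as in the other GE libraries.

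In LE, ACP5 was at 28.8, 173, 211 and 380 CPM in cyclic gilts C128, C40, C42 and C78. It was at 763, 204, 392 and 275 CPM in pregnant gilts P139, P39, P41 and P43. The groups overlapped, gilt C128 was again the lowest, and the log2 fold change was 1.04 ± 0.68 (adjusted p = 0.362). Averaged over both states, GE exceeded LE by 3.29 ± 0.63 on the log2 scale (adjusted p = 0.000180), one of the 41.4% of 13887 genes whose levels differed between LE and GE at a false discovery rate of 1%. LE in turn exceeded BV by 2.41 and S by 3.18 (adjusted p = 0.00314 and 0.000228), comparisons in which 49.2% and 50.6% of genes differed. BV and S were not separated (difference 0.77 ± 0.69, adjusted p = 0.510).

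ACP5 rose in BV of pregnant gilts. Cyclic BV held 5.69 CPM in gilt C128, 11.0 in gilt C40, 3.39 in gilt C42 and 2.96 in gilt C78. Pregnant BV held 371 CPM in gilt P139, 380 in gilt P39, 32.4 in gilt P41 and 603 in gilt P43. Every pregnant library lay above every cyclic one, and gilt P41 was the lowest of the pregnant group by a wide margin. The log2 fold change was 5.88 ± 0.84, a 59.1-fold difference (adjusted p = 0.0130).

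ACP5 also rose in S. It stood at 5.96, 5.02, 11.6 and 12.3 CPM in cyclic gilts C128, C40, C42 and C78. It stood at 40.96, 52.9, 145 and 75.6 CPM in pregnant gilts P139, P39, P41 and P43. The groups did not overlap, and the log2 fold change was 3.18 ± 0.47, or 9.08-fold (adjusted p = 0.0891, called by its unadjusted p). Without cyclic gilt C128 the log2 fold change of ACP5 in S was 3.03 and the call was lost (unadjusted p = 0.000381).

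Epithelial markers were also higher in pregnant than in cyclic BV. Their sum was 2.54 to 39.7 CPM in cyclic and 128.5 to 234 CPM in pregnant BV, and all 4 detectable markers of the 5 lay higher in pregnant gilts without overlap, with CDH1 called (median log2 fold change 2.67) and with 3 called by DESeq2 and 4 by the robust GLM. Within pregnant BV the marker sums were 234, 153, 138 and 128.5 CPM in gilts P139, P39, P41 and P43. ACP5 was at 371, 380, 32.4 and 603 CPM in these libraries. None of the 5 markers was at 0 in a group. FOXA2, which was not among the detectable genes of BV, was at 0.283 to 2.09 CPM in cyclic and 4.19 to 22.7 CPM in pregnant BV. In S the sum of epithelial markers overlapped, at 7.62 to 153 CPM in cyclic and 22.7 to 381 CPM in pregnant gilts, and none of 5 was called by the quasi-likelihood test, DESeq2 or the robust GLM, with 1 at an unadjusted p under 0.05 (median 0.38). Macrophage markers in S summed to 217 to 411 CPM in cyclic and 401 to 608 CPM in pregnant gilts, with the log2 fold change above 0 for 8 of 8 and no overlap for 4. The quasi-likelihood test called 0 of the 8, with 5 at an unadjusted p under 0.05 beside 1735 of 11935 genes of S. DESeq2 and the robust GLM each called 1 macrophage marker. Smooth muscle markers in S summed to 321 to 864 CPM in cyclic and 181 to 283 CPM in pregnant gilts, with ACTA2 called lower (log2 fold change -2.10, adjusted p = 0.104), and DESeq2 called 2 and the robust GLM 3 of the 5 lower. The part of any of these markers in the differences of BV and S, those of STEAP2 and FTL included, was not tested.

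**Figure D2:**
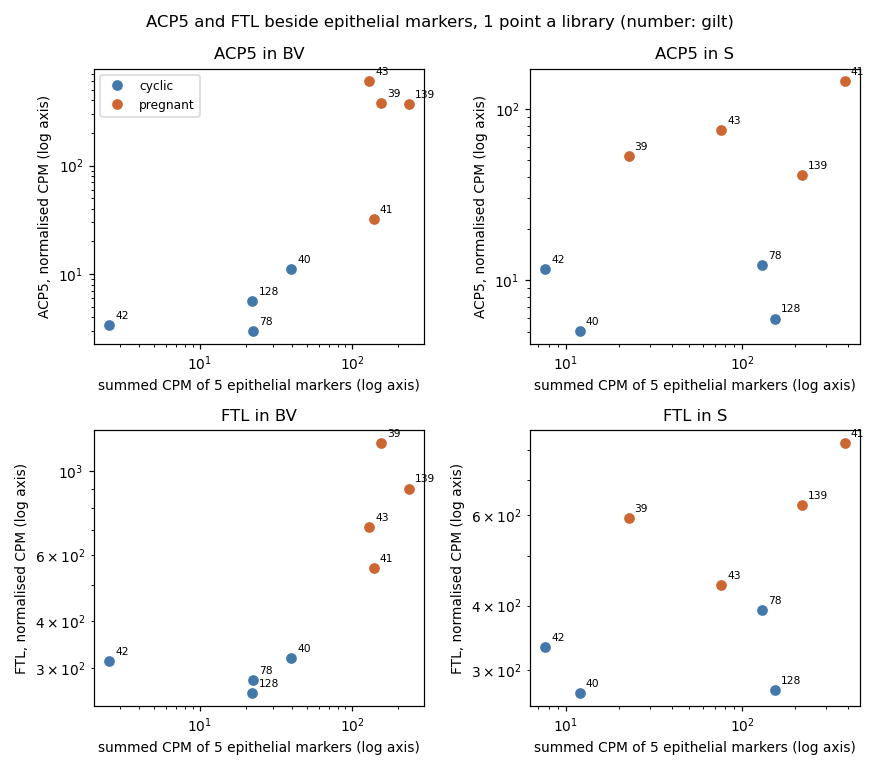
ACP5 (top) and FTL (bottom) in normalised CPM against the summed CPM of 5 epithelial markers, both on log axes, in BV (left) and S (right), with 1 point for each library and its gilt number. In BV the pregnant libraries are higher on both axes, and in S the marker sums of the groups overlap while ACP5 does not.

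Over the 31 libraries, which share gilts and compartments, the log2 CPM of ACP5 was most like that of MEP1B (Pearson r = 0.957), a meprin metalloprotease subunit, among 13887 genes, followed by MXI1 (0.939), LOC100517809 (0.938), LOC110261973 (0.936) and the prostaglandin E2 receptor gene PTGER2 (0.930). MEP1B averaged 1641 CPM in GE of cyclic and 5451 CPM in that of pregnant gilts, and 5.71 and 188 CPM in BV. Among the iron genes, FTL ranked 7 in likeness to ACP5 (r = 0.927). UABP-2, a serpin that associates with uteroferrin in uterine secretions, was singled out after its values were seen. In GE it averaged 252 ± 165 CPM (SD, n = 4) in cyclic and 2073 ± 1482 CPM (n = 3) in pregnant gilts, and the log2 fold change was 3.02 (adjusted p = 0.0985). In BV its log2 fold change was 5.01 (adjusted p = 0.0450), in S 4.69 (0.106) and in LE 3.77 (0.117), and the quasi-likelihood test called it in none. DESeq2 called it higher in GE, BV and S, and the robust GLM in every compartment.

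STEAP2, a ferrireductase of the endosomal and plasma membrane, rose the most of the iron genes, in LE. Cyclic LE held 3.46 CPM in gilt C128, 1.09 in gilt C40, 1.14 in gilt C42 and 2.49 in gilt C78. Pregnant LE held 442 CPM in gilt P139, 436 in gilt P39, 208 in gilt P41 and 543 in gilt P43. No library came near the other group, and the log2 fold change was 7.64 ± 0.49, or 199-fold (adjusted p = 7.11e-05). The gene (100623287) lies at chr9:70334785-70365687. Epithelial markers in LE summed to 2358 to 2954 CPM in cyclic and 1674 to 2071 CPM in pregnant gilts, with KRT8 called lower by the quasi-likelihood test, 1 higher and 3 lower by DESeq2 and 3 lower by the robust GLM, and their part in the LE differences was not tested. In pregnant LE the 44.6 CPM per kb of STEAP2 ranked 1031 of 12002 genes, and in cyclic LE it ranked 11958.

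STEAP2 had a fold change of the opposite sign in the glands. Cyclic GE held 7.09, 7.11, 8.44 and 7.17 CPM in gilts C128, C40, C42 and C78. Pregnant GE held 0.979, 1.83 and 4.16 CPM in gilts P139, P39 and P43. All pregnant libraries lay below the cyclic ones, with a log2 fold change of -1.73 ± 0.47 (adjusted p = 0.0929), no call. The difference of the effects between LE and GE was itself tested in a joint fit with the gilt as a block, over the 13887 genes detectable in at least 1 compartment. It was 9.51 ± 0.95 on the log2 scale (adjusted p = 2.78e-05), where 1.02% of genes were called.

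In S, STEAP2 stood at 1.15, 0.558, 0.363 and 2.56 CPM in cyclic gilts C128, C40, C42 and C78. It stood at 52.1, 4.53, 28.0 and 19.3 CPM in pregnant gilts P139, P39, P41 and P43. Epithelial markers in S summed to 217, 22.7, 381 and 76.2 CPM in pregnant gilts P139, P39, P41 and P43. Cyclic gilts C128 and C78, at 153 and 129 CPM, lay above P39 and P43 in these markers, and C40 and C42 lay below both. STEAP2 did not overlap between the groups, and its lowest pregnant library was that of gilt P39. The log2 fold change was 4.32 ± 0.76, or 19.9-fold (adjusted p = 0.103, called by its unadjusted p), and leaving out any 1 of 6 of the 8 libraries ended the call. Without cyclic gilt C78, the highest of its group, the log2 fold change of STEAP2 in S was 5.05. The effect in GE differed from that in S by -6.02 ± 0.99 (adjusted p = 0.00870, 0.0576% of genes called). The part of epithelial RNA in the STEAP2 difference of S was not tested. STEAP2 was not detectable in BV, where it had 0 to 4.19 CPM. Averaged over states, LE exceeded GE by 2.83 (adjusted p = 7.16e-05), but in cyclic gilts alone LE lay 1.93 below GE (adjusted p = 0.0194). Its most like genes were CA3 (r = 0.921) and POF1B (r = 0.920), and carbonic anhydrase gene CA3 averaged 37.4 CPM in pregnant LE and 0.0566 CPM in cyclic LE.

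**Figure D3:**
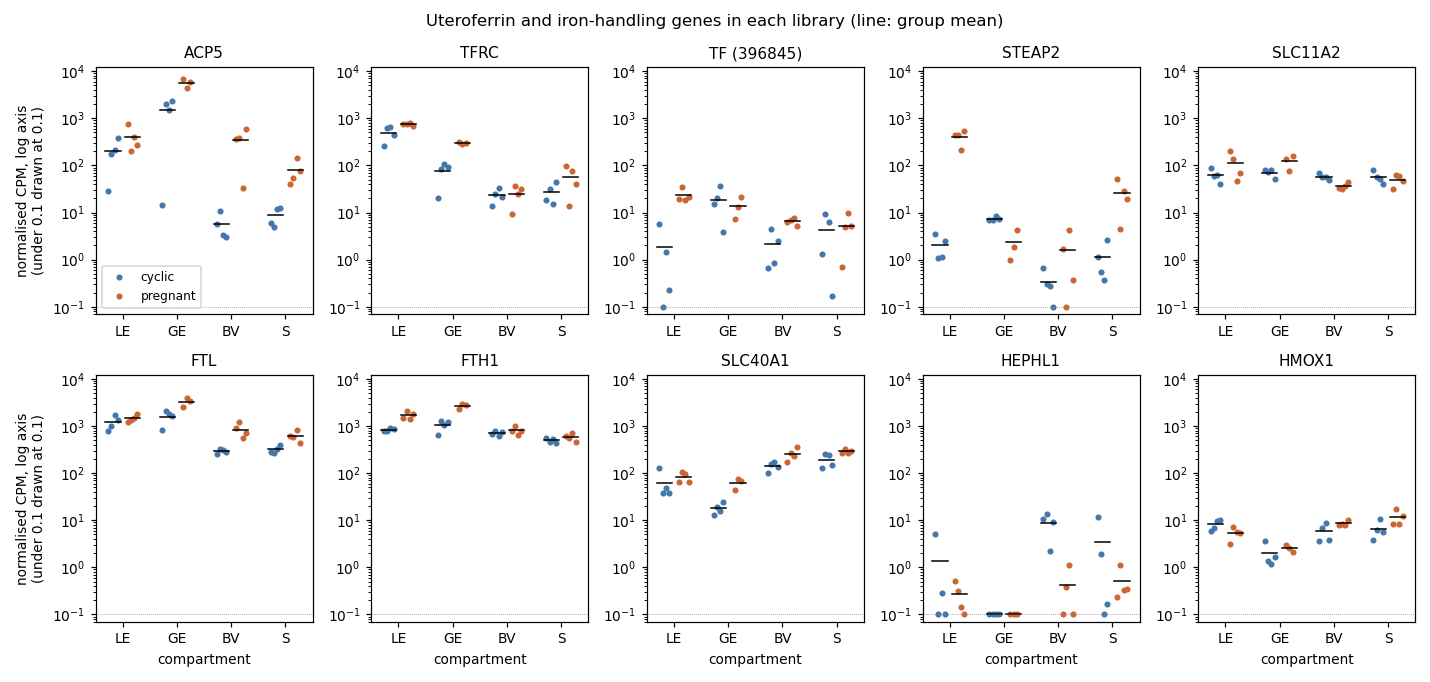
Normalised CPM (vertical log axis, values under 0.1 drawn at 0.1) of 10 iron-handling genes in cyclic and pregnant libraries of LE, GE, BV and S, with 1 point a library and a line at the group mean. ACP5 is highest in GE, TFRC in LE and SLC40A1 in BV and S, STEAP2 in pregnant LE, and GE of cyclic gilt C128 is low for ACP5, TFRC, FTL and FTH1.

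TFRC, the receptor for transferrin-bound iron (gene 397062, chr13:133976765-133997554), was highest in the luminal epithelium. LE held 256, 617, 659 and 433 CPM in cyclic gilts C128, C40, C42 and C78, and 756, 758, 795 and 670 CPM in pregnant gilts P139, P39, P41 and P43. GE held 20.4, 83.3, 107 and 93.9 CPM in the same cyclic gilts, and 321, 279 and 293 CPM in pregnant gilts P139, P39 and P43. In both epithelia every pregnant library lay above every cyclic one, narrowly in LE, where gilt C42 and gilt P43 were 659 and 670 CPM. The log2 fold change was 1.95 ± 0.47 in GE (adjusted p = 0.0744) and 0.61 ± 0.28 in LE (adjusted p = 0.195), and neither was called. Without cyclic gilt C128 the log2 fold change of TFRC in GE was 1.63 and was called (adjusted p = 0.0155). BV and S ranged from 9.26 to 35.8 CPM and from 14.0 to 94.9 CPM, with overlapping groups. LE exceeded GE by 2.03 (adjusted p = 2.46e-05), and GE exceeded BV by 2.58 (adjusted p = 7.21e-07) and S by 1.91 (adjusted p = 2.56e-05). In the comparisons of GE with BV and with S, 58.3% and 59.3% of genes differed.

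Messenger RNA of its ligand was low throughout, and the protein was not measured. The annotation gives the symbol TF to transferrin itself (gene 396996, chr13:74930655-74970599) and to the adjacent gene 396845 (chr13:74862502-74907059), described as the porcine inhibitor of carbonic anhydrase, a relative of transferrin. Because these copies are related in sequence, reads may have been split between them. TF (396996) was detectable in no compartment and ranged from 0 to 3.99 CPM, the highest values being in S. TF (396845) in LE stood at 5.59, 0, 1.42 and 0.226 CPM in cyclic gilts C128, C40, C42 and C78. It stood at 19.2, 34.5, 18.3 and 21.7 CPM in pregnant gilts P139, P39, P41 and P43. The groups did not overlap, but at a log2 fold change of 3.75 ± 0.83 the adjusted p of 0.0221 missed the threshold. Without cyclic gilt C128, its highest cyclic library, TF (396845) in LE had a log2 fold change of 5.49 and was called (adjusted p = 0.00369). In GE it ranged from 3.80 to 35.8 CPM with overlapping groups (log2 fold change -0.47, adjusted p = 0.719), and LE and GE effects differed by 4.00 ± 1.12 (adjusted p = 0.0494), above the threshold of 0.01.

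SLC11A2, the divalent metal transporter (gene 733595, on a sequence not placed on a chromosome), had group means between 36.4 and 123 CPM. Averaged over states, GE exceeded BV by 0.97 (adjusted p = 0.00124) and S by 0.75 (adjusted p = 0.00932), and LE exceeded BV by 0.83 (adjusted p = 0.00414). In BV it stood at 68.3, 55.5, 55.9 and 48.6 CPM in cyclic gilts C128, C40, C42 and C78, and at 32.4, 31.7, 36.2 and 45.4 CPM in pregnant gilts P139, P39, P41 and P43. Pregnant BV lay below cyclic BV throughout, with a log2 fold change of -0.64 ± 0.17 (adjusted p = 0.0454), no call. The log2 fold change was 0.90 ± 0.44 in LE, 0.80 ± 0.27 in GE and -0.21 ± 0.27 in S, none called and with overlapping groups. The effects in LE and BV differed by 1.51 ± 0.47 (adjusted p = 0.0437), also short of the threshold.

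The ferritin chains were among the most abundant messengers of the epithelia. Both lie in families with processed copies in the genome, among them a ferritin light chain-like gene, so a share of their reads may belong to, or have gone to, such copies. FTH1 (gene 397030, chr2:9535051-9537979), the chain with ferroxidase activity, stood in LE at 767, 788, 894 and 881 CPM in cyclic gilts C128, C40, C42 and C78. It stood at 1480, 2035, 1432 and 1832 CPM in pregnant gilts P139, P39, P41 and P43. The groups were far apart, and FTH1 rose by a log2 fold change of 1.04 ± 0.18, or 2.05-fold (adjusted p = 0.00885). Leaving out any 1 of the 8 libraries ended the call, with an adjusted p of 0.0113 to 0.0344. In GE it stood at 630, 1251, 1051 and 1188 CPM in cyclic and 2285, 2994 and 2759 CPM in pregnant gilts, without overlap (log2 fold change 1.36 ± 0.28, adjusted p = 0.0552). BV and S had log2 fold changes of 0.21 ± 0.16 and 0.25 ± 0.17, with overlapping groups.

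FTL (gene 397035, chr6:54231121-54232756), the chain that promotes iron core formation, rose in BV instead. It stood at 258, 320, 314 and 280 CPM in cyclic gilts C128, C40, C42 and C78, and at 900, 1189, 555 and 712 CPM in pregnant gilts P139, P39, P41 and P43. Every pregnant library lay above every cyclic one, and the log2 fold change was 1.53 ± 0.23, or 2.89-fold (adjusted p = 0.0130). Without cyclic gilt C128 the log2 fold change of FTL in BV was 1.47 and the call was lost (unadjusted p = 0.000334). As for ACP5, the epithelial markers of BV were higher in the same libraries, and their part was not tested. In S, FTL stood at 275, 270, 333 and 392 CPM in cyclic and 628, 590, 827 and 439 CPM in pregnant gilts, without overlap (log2 fold change 0.98 ± 0.22, adjusted p = 0.114, no call). In GE the groups did not overlap either, at 833 to 2074 and 2585 to 3836 CPM (log2 fold change 1.05 ± 0.34, adjusted p = 0.123). In LE they overlapped (0.27 ± 0.27, adjusted p = 0.560). Both chains were highest in GE, then LE, then BV and S. FTL in GE exceeded LE by 0.76 (adjusted p = 0.00121) and FTH1 by 0.47 (adjusted p = 0.00599), while BV and S were not separated for FTL (0.15, adjusted p = 0.613) or FTH1 (0.47, adjusted p = 0.0171), where 7.19% of genes differed.

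The balance of the chains, FTL over FTH1 in CPM per kb, lay higher in pregnant gilts beneath the epithelia and lower within them. It averaged 0.449 ± 0.059 (SD, n = 4) in cyclic and 1.09 ± 0.18 (n = 4) in pregnant BV. In S it averaged 0.700 ± 0.193 and 1.12 ± 0.09. In LE it averaged 1.54 ± 0.40 and 0.932 ± 0.186, and in GE 1.61 ± 0.21 and 1.31 ± 0.08 (n = 3). Groups did not overlap in BV, S and GE, and in LE they met at 1.09 in cyclic gilt C128 and 1.10 in pregnant gilt P41. The ratio was described and not tested. For the single chains, the effects in LE and BV differed by -1.16 ± 0.35 for FTL (adjusted p = 0.0358) and by 0.85 ± 0.26 for FTH1 (adjusted p = 0.0401), neither at the threshold of 0.01, with 3.37% of genes called. The FTH1 effects in GE and BV differed by 1.20 ± 0.27 (adjusted p = 0.0296), where 0.185% of genes were called.

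**Figure D4:**
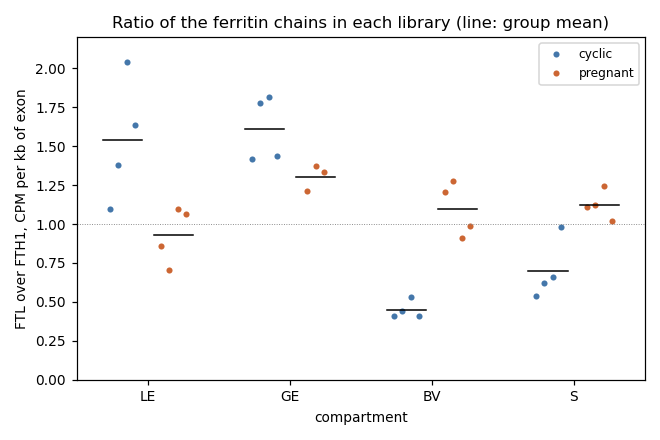
FTL over FTH1, both in CPM per kb of exon (vertical axis), in each cyclic and pregnant library of LE, GE, BV and S, with a line at the group mean. The ratio is higher in pregnant than in cyclic libraries of BV and S and lower in pregnant GE, and in LE the groups touch.

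SLC40A1, ferroportin, the exporter of cellular iron (gene 100737517, chr15:94140635-94161793, minus strand), had the reverse order of compartments. It was highest in S and BV, lower in LE and lowest in GE. S exceeded LE by 1.72 (adjusted p = 4.30e-06), BV exceeded LE by 1.41 (adjusted p = 4.90e-05) and LE exceeded GE by 1.10 (adjusted p = 0.00141), while S and BV were not separated (0.32, adjusted p = 0.412). In GE it rose with pregnancy, from 12.9, 18.8, 16.1 and 24.9 CPM in cyclic gilts C128, C40, C42 and C78 to 44.1, 73.3 and 69.0 CPM in pregnant gilts P139, P39 and P43. The groups did not overlap, with a log2 fold change of 1.76 ± 0.27, or 3.38-fold (adjusted p = 0.0394, called by its unadjusted p of 0.000204). Leaving out C40, C42, P39 or P43 ended the call of SLC40A1 in GE, with log2 fold changes of 1.62 to 1.77 and unadjusted p-values of 0.000895 to 0.00126. Markers of macrophages, which export iron through ferroportin, summed in GE to 32.7 to 61.5 CPM in cyclic and 98.6 to 161 CPM in pregnant gilts, with the log2 fold change above 0 for 5 of 6 detectable markers. The quasi-likelihood test called 0 of the 6, with 5 at an unadjusted p under 0.05 beside 2742 of 11905 genes of GE. DESeq2 called 2 of these markers and the robust GLM 5, all higher. Their part in the SLC40A1 difference was not tested. In BV, SLC40A1 stood at 98.4, 158, 171 and 136 CPM in cyclic and 174, 273, 227 and 364 CPM in pregnant gilts, just without overlap (0.89 ± 0.24, adjusted p = 0.0522). S also had no overlap, at 130 to 252 and 266 to 328 CPM (0.60 ± 0.23, adjusted p = 0.285), and LE overlapped (0.41 ± 0.40, adjusted p = 0.554), with cyclic gilt C128 at 129 CPM above all others.

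HEPHL1, a membrane ferroxidase (gene 100625356, chr9:26356159-26438315), was detectable only in BV. It stood there at 10.4, 13.7, 2.26 and 9.30 CPM in cyclic gilts C128, C40, C42 and C78, and at 0, 0.377, 1.14 and 0 CPM in pregnant gilts P139, P39, P41 and P43. These are 107 counts over the cyclic and 4 counts over the pregnant group. Pregnant BV lay below cyclic BV in every library, but with a log2 fold change of -4.37 ± 0.84 the unadjusted p of 0.000452 missed the limit (adjusted p = 0.0186). Without pregnant gilt P41, which held 3 of the 4 counts, the log2 fold change of HEPHL1 was -5.68, and without cyclic gilt C42 it was -4.69 and was called. Smooth muscle markers in BV had the same direction, with a median log2 fold change of -1.72 over 5 genes and sums of 4984 to 16025 CPM in cyclic and 717 to 6038 CPM in pregnant gilts. The quasi-likelihood test called 0 of the 5, with 4 at an unadjusted p under 0.05 beside 3161 of 11096 genes of BV. DESeq2 called 1 of these markers lower and the robust GLM 4. Their part was not tested. GE had 0 counts in all 7 libraries, which allows up to 0.178 CPM over the cyclic and 0.254 CPM over the pregnant group.

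HMOX1, haem oxygenase (gene 445512, on a sequence not placed on a chromosome), was low in all compartments, at 1.21 to 17.4 CPM, and was not detectable in GE. Its log2 fold change was -0.61 ± 0.33 in LE, 0.56 ± 0.33 in BV and 0.85 ± 0.37 in S (adjusted p = 0.283, 0.298 and 0.333), with overlapping groups. Its level in GE was lower than in LE by 1.51, in BV by 1.61 and in S by 1.87 (adjusted p = 0.000161, 5.39e-05 and 6.55e-06). Its levels in LE, BV and S were not separated, with differences of 0.09 to 0.35 on the log2 scale.

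Of the 10 genes detectable in at least 1 compartment, 40 of 60 differences of level between compartments were called, 1 of them between BV and S. Among 13887 genes, 41.4%, 49.2% and 50.6% differed between LE and GE, BV and S. Between GE and BV, GE and S, and BV and S, 58.3%, 59.3% and 7.19% differed. The called pairs include HEPHL1 in GE against S (-5.07), where it was detectable in neither and gilt C128 held 60 counts in S. A difference of the pregnancy effect among compartments was sought in the 6 genes detectable in all 4, and 0 of 6 were called at an adjusted p under 0.01, with 3.05% called among 9727 genes. At an unadjusted p under 0.05 there were 5 of 6. The share of all genes at that limit was not counted, so no excess can be read from this count. FTH1 came closest to a call (adjusted p = 0.0109). For ACP5 the effect in LE was smaller than in BV by 4.43 ± 1.30 (adjusted p = 0.0340), which was not called.

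The wider iron and haem pathway was read from a list of 57 symbols beside the genes above, of which 55 matched and 46 were detectable in at least 1 compartment. In LE, 2 of 44 rose and 2 fell, with 2.02% of all genes called higher and 1.29% lower. In GE, BV and S, 0 of 43, 0 of 37 and 0 of 39 were called by the quasi-likelihood test, beside 0.748%, 1.86% and 0.293% of all genes. An unadjusted p under 0.05 was reached by 15, 11 and 7 of them, beside 2742 of 11905, 3161 of 11096 and 1735 of 11935 of all genes. DESeq2 called 7, 6, 4 and 2 of the pathway genes in LE, GE, BV and S, where it called 11.2%, 6.64%, 8.50% and 2.52% of all genes. The robust GLM called 10, 5, 4 and 1, against 11.8%, 6.66%, 11.0% and 3.16%. Their median log2 fold change was 0.20, -0.09, 0.25 and 0.07 in LE, GE, BV and S. STEAP1, a relative of STEAP2 without the reductase domain, rose in LE from 1.99 ± 1.08 CPM to 24.1 ± 15.0 CPM (n = 4 each, log2 fold change 3.57, adjusted p = 0.00539). NFE2L2, the transcription factor of the antioxidant response, rose from 464 ± 89 to 1404 ± 279 CPM (1.60, adjusted p = 0.00375). ACO1, iron regulatory protein 1 when it lacks its iron-sulfur cluster, fell from 437 ± 119 to 109 ± 35 CPM (-1.98, adjusted p = 0.00327). ABCG2, an exporter that also carries porphyrins, fell from 372 ± 132 to 52.5 ± 18.5 CPM (-2.81, adjusted p = 0.00205). The uptake and reduction genes had a median log2 fold change of 0.97 over 10 genes in LE with STEAP1 called, while DESeq2 called 2 higher and 1 lower and the robust GLM 4 higher and 1 lower. Haem synthesis genes had a median of -0.22 over 8 genes, and none was called by the 3 tools, with 2 at an unadjusted p under 0.05 beside 3233 of 12002 genes of LE.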

How the data were processed

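RNA of LE, GE, BV and S captured by laser from 8 gilts was sequenced with the Ovation SoLo kit. After adapter trimming (Trim Galore), the authors aligned reads to Sscrofa11.1 (Hisat2), took out PCR duplicates (nudup of NuGEN) and counted per gene of NCBI (QuasR). Versions, strand setting and the minimum CPM of the filter are not given in the sources used here. All deposited values are counts, whole numbers without normalization, in 1 full table of 30185 genes and 1 filtered table a compartment. All gene IDs matched a symbol, and positions and exon lengths are those of NCBI's annotation for this build. Without a stated strand setting, reads of overlapping antisense genes cannot be told apart.

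Within a compartment, pregnant were set against cyclic libraries in edgeR 4.0.16 (R 4.3.3), by its quasi-likelihood F test with TMM on the filtered counts, and Benjamini-Hochberg adjustment covered all genes of the table. The rule for calls is that of the paper's methods, which used the robust GLM. Interaction contrasts and level contrasts came from 1 joint fit of 31 libraries with the gilt as a block, called at an adjusted p under 0.01. Each SE of a log2 difference is its absolute value divided by the square root of its F statistic, and was not estimated separately. The fit over genes detectable in at least 1 compartment was chosen after seeing the data. Gilt numbers pair libraries of the same animal. Over 45 same-gilt pairs the correlation of deviations from group means had a median of 0.165, with 34 above 0.1. A floor of 3 counts over a group was used where counts were 0, and it covers counting error only. Likeness of genes is Pearson's r of log2 CPM with a prior count of 2, and the 5 most like genes were taken for ACP5 and 2 for the others, of which those of ACP5 and STEAP2 are printed. Pathway genes are named where called. The tests were checked on simulated counts. The genes, lists and tests were chosen with earlier results of these data known. Alternatives were DESeq2 1.42.0, the robust GLM, RLE normalization, other filters and false discovery rates, no block, and each library or gilt left out.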

Additional observations from a re-analysis of the deposited data

Results flagged for a closer look

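A library stood apart from the rest of its group in 3 of 60 groups tested with Dixon's criterion, about the 1 in 20 that chance gives. SLC40A1 in LE was at 129 CPM in cyclic gilt C128, and the next library of that group was at 48.5 CPM. STEAP2 in GE was at 8.44 CPM in cyclic gilt C42, with the next at 7.17 CPM, a gap that is small in size beside the very even values of the other libraries. HMOX1 in BV was at 9.97 CPM in pregnant gilt P43, with the next at 8.30 CPM.

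The effect of pregnancy on STEAP2 differed between compartments by a test of the difference itself. LE and GE differed by 9.51 on the log2 scale, and GE and S by -6.02, and the quasi-likelihood test of edgeR gave adjusted p-values of 2.78e-05 and 0.00870. The second difference lost its call without any 1 of 6 of the 8 gilts, with adjusted p-values up to 0.0525, and the first kept it without each of the 8.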

How the results depend on the processing

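Of 1270 alternative values, 1098 were labelled as the same. For the values of single genes this means that direction and side of the threshold were kept. For numbers of genes called it means a number within a set ratio of the main one, not an equal number. The number of iron genes called, 2 each in LE, BV and S and 1 in GE, was 4 in GE and 5 in BV with DESeq2, and 4 in GE and 4 in BV with the robust GLM. Each also called 3 in LE and 3 in S. The genes added by both were TF (396845) in LE, TFRC, FTH1 and STEAP2 in GE, HEPHL1 and SLC40A1 in BV, and FTL in S, and DESeq2 also added SLC11A2 in BV. LE had 1 with no filter (481 of 22213 genes called) and 1 with edgeR's filterByExpr (381 of 12869), which lost FTH1. With a false discovery rate of 1% within the compartment, GE, BV and S had 0, because 0 of all 11905, 11096 and 11935 genes were called. With 5%, BV had 4, beside 958 of 11096 genes, and S 0, beside 4 of 11935. Leaving out 1 library gave 1 to 2 in LE, 0 to 2 in GE, 1 to 3 in BV and 0 to 2 in S. The number of all genes called then ranged from 101 to 439 in LE, 38 to 110 in GE, 77 to 231 in BV and 12 to 52 in S. With every library it was 398, 89, 206 and 35. The calls of STEAP2 in LE and ACP5 in BV were kept without each library, with adjusted p-values of at most 0.00108 and 0.0459. SLC40A1 in GE lost its call without 4 of the 7 libraries. HEPHL1 in BV was called without cyclic gilt C42 (-4.69), and was -5.68, no call, without pregnant gilt P41.

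The difference between compartments, 0 of 6 with the gilt as a block, was 1 without the replicate block, 1 at a false discovery rate of 5% and 0 to 1 without 1 gilt. Of all 9727 genes these settings called 203, 923 and 81 to 255, beside 297 in the main fit. The levels, 40 of 60 called, gave 28 to 43 under other settings, 40 without the block and 33 to 41 without 1 gilt. Leaving out 1 library turned the direction of 4 values that were not called, on the log2 scale TF (396845) in GE (-0.902 to 0.0776) and S (-0.221 to 1.16), TFRC in BV (-0.086 to 0.398) and SLC11A2 in S (-0.362 to 2.41e-05). For STEAP2 the LE level was 1.93 below that of GE in cyclic gilts only (-1.93), against 2.83 above it over both states. The causes were not tested.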
